A study of Mus musculus with 4 samples.

Results

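The actin-based motors and the actin bundler of sensory hair cells were examined in E15 cochleas of *Meis2* conditional mutants. The set holds the unconventional myosins *Myo7a*, *Myo6*, *Myo15*, *Myo3a*, *Myo3b*, *Myo1c*, *Myo10* and *Myo5a* and the bundler *Espn*, each read by 1 probe set, so 9 of the 19938 genes named by 1 symbol and 9 of the 35556 probe sets on the array. They were chosen by gene symbol, whatever their signal. RNA of whole cochleas at embryonic day 15 was measured on Affymetrix Mouse Gene ST arrays. There were 2 arrays of *Meis2* flox/flox; *Pax2* Cre/+ mutants (replicates 1 and 2) and 2 arrays of wild-type embryos (replicates 2 and 3). In the mutants, Cre is driven by *Pax2* regulatory sequences and acts from the otic placode onward, so cells of other origin in a whole cochlea may keep *Meis2*. The sources used here do not state which alleles the wild-type embryos carried beyond their label, nor whether an RNA sample put on an array was a pool of animals.

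Unconventional myosins are motors that walk along actin filaments and carry cargo or hold membranes under tension, in contrast to the conventional myosins that slide filaments in muscle. Hair cells sense sound with stereocilia, finger-like protrusions built on a core of bundled actin, and several of these motors place proteins at the tips, links or base of each stereocilium. Loss of *Myo7a*, *Myo6*, *Myo15* or *Espn* causes deafness in mice. In the mouse cochlea the first hair cells differentiate around the stage sampled here, and not all of these genes are restricted to them, since *Myo1c*, *Myo5a*, *Myo6* and *Myo10* are used by many other cells. In whole tissue, fewer cells of a type and less RNA per cell cannot be told apart.

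The 300 bases around the annotated starts of the genes (250 before and 50 after, from RefSeq on GRCm38.p6) are shown for the 4 members that were higher in mutants and for *Myo6*, which was lower, so that their letters can be read beside their values. The windows are chr7:98119444-98119743 on the minus strand for *Myo7a*, chr11:75650269-75650568 on the plus strand for *Myo1c*, chr4:152152340-152152639 on the minus strand for *Espn*, chr11:60469089-60469388 on the plus strand for *Myo15* and chr9:80164784-80165083 on the plus strand for *Myo6*. Capitals mark matches, on either strand, to the E-box CAGCTG, a site type of basic helix-loop-helix factors, or to TGATNNAT, which resembles a Pbx-Hox site. The study writes that motif with A or T as its first letter, and the form that starts with A was not searched.
Myo7a: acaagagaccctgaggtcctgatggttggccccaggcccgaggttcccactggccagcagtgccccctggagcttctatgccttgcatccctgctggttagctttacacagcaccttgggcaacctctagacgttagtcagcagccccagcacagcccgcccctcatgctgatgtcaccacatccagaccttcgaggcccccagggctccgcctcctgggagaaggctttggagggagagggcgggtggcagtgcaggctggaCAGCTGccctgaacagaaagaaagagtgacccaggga
Myo1c: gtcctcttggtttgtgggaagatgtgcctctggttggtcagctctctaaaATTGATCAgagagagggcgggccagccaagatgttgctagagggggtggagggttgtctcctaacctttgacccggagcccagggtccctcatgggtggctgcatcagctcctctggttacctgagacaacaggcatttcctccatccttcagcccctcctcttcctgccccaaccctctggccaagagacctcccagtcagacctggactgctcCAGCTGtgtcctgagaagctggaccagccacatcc
Espn: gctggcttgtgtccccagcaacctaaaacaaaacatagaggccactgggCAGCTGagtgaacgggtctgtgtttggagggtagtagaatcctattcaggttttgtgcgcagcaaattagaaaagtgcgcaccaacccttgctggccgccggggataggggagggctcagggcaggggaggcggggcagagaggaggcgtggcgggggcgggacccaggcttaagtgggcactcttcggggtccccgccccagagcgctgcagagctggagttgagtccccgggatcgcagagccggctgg
Myo15: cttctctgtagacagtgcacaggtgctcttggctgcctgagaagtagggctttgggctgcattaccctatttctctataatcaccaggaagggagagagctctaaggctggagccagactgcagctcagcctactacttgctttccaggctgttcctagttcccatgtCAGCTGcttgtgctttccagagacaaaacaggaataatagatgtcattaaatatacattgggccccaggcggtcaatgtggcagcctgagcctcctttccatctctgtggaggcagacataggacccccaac
Myo6: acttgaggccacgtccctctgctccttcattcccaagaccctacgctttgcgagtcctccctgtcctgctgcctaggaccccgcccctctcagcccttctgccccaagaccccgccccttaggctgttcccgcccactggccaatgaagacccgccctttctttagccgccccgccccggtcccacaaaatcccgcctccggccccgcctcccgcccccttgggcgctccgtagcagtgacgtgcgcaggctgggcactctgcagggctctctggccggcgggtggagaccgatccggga
CAGCTG reads the same on both strands. In the windows at the most upstream start of each gene it was found in 4 of 9 members, *Myo7a* (position 13, counted for the first base from the annotated start at 0), *Myo1c* (position 15), *Espn* (position -201) and *Myo15* (position -82), and in 16.1% of 27025 genes. The windows of *Myo6*, *Myo5a*, *Myo10*, *Myo3a* and *Myo3b* did not hold these letters. TGATNNAT was found in the window of *Myo1c* (position -200, minus strand) and in 9.02% of all genes. TGACAG, the direct site of Meis proteins, was found in 0 of the 9 windows and in 19.3% of all genes, while second windows of *Espn* (position -184) and *Myo10* (position 19, minus strand) held it. At later starts, CAGCTG was also found for *Myo7a* (window 2, position 42) and *Espn* (window 3, positions -126 and -78), and TGATNNAT for *Myo10* (window 2, position -129, minus strand). These matches describe the letters in a window and the motifs were chosen with the expression differences in view. In an otic cell line, the study found most Meis2 binding sites far from the nearest start. Whether Meis2 binds near these genes therefore cannot be read from the windows.

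The arrays differed in ways that concern every gene. Of all probe sets, 37.3% passed an adjusted p of 0.05 with limma, a linear model that pools the estimate of the spread across probe sets, with 21.6% higher and 15.7% lower in mutants, and 76.1% had signals that did not overlap between genotypes. The share of calls that were lower was 42% as deposited and 56% after median scaling, and the median difference of all probe sets was 0.11 on the log2 scale as deposited and 0.03 after it. The *Meis2* probe set had signals of 9.61 and 9.80 in mutants and 9.64 and 9.38 in wild type (adjusted p = 0.284 from limma). Its place relative to the deleted exons was not examined, and cells of other origin may keep *Meis2*. This probe set therefore does not check the genotype. *Xist*, which is transcribed in females, was at 11.83 and 11.84 in mutants and at 5.54 and 11.51 in wild-type replicates 2 and 3. Results without wild-type replicate 2 are therefore also given for the members and the gene lists.

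Of the 9 members, 4 were higher in mutant cochleas (*Myo7a*, *Myo1c*, *Espn* and *Myo15*), 2 were lower (*Myo6* and *Myo5a*) and 3 did not pass the test (*Myo3a*, *Myo3b* and *Myo10*), against 21.6% higher and 15.7% lower of all probe sets. SAM, the permutation method that the study names, called 8 of the 9 and 75.8% of all probe sets. The signals of 8 members did not overlap between genotypes, a property shared by 76.1% of all probe sets. The median difference of the 9 was 0.20 on the log2 scale, beside 0.11 over all probe sets.

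**Figure D1:**
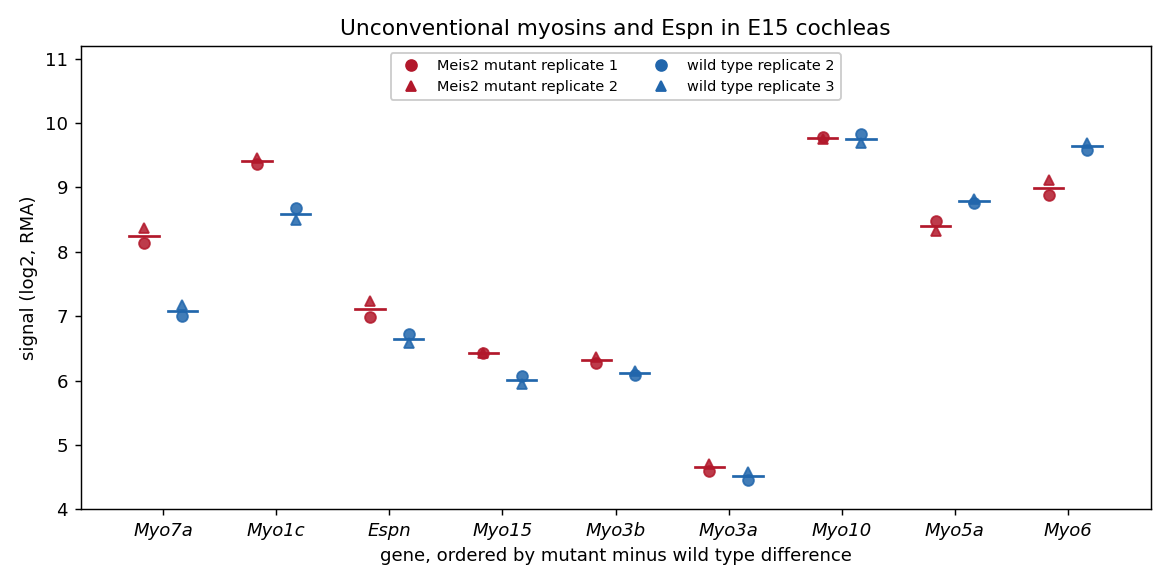
Log2 signal (y axis) of each member (x axis, ordered by difference) on the 4 arrays, with mutant arrays to the left of wild-type arrays and lines at the mean of each genotype. *Myo7a* and *Myo1c* stand clearly apart with mutants above, *Myo6* and *Myo5a* with mutants below, and the 4 points of *Myo10* overlap. Probe sets differ in brightness for the same amount of RNA, so heights of different genes are not comparable.

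Among the motors of the stereocilium, *Myo7a*, which anchors the links between stereocilia and labels hair cells from early stages, had signals of 8.14 and 8.37 in mutants against 7.00 and 7.17 in wild type. Both mutant arrays lay above both wild-type arrays, with a gap of 0.97. *Myo7a* rose by 1.17 (95% confidence interval 0.86 to 1.48 around it, standard error 0.12), a fold of 2.25 with an adjusted p of 0.00442 in limma, and 1.02% of all probe sets had a larger increase. The increase stayed past the threshold without any 1 array, between 1.05 and 1.29.
*Myo15*, which carries Eps8 and whirlin to the tips where stereocilia elongate, had signals of 6.43 on both mutant arrays against 6.07 and 5.94 in wild type. The mutant values coincided and lay above the wild-type ones. *Myo15* rose by 0.42 (standard error 0.09, interval 0.19 to 0.64, adjusted p = 0.0216 from limma), a fold of 1.34. It lost its call when the arrays were quantile normalized again (0.29, adjusted p = 0.0625) and without mutant replicate 1, mutant replicate 2 or wild-type replicate 3 (adjusted p = 0.101, 0.106 and 0.0642), while its difference was 0.48 without wild-type replicate 2 (adjusted p = 0.0302).
*Myo3a* and *Myo3b*, are kinase-bearing myosins that bring espin to stereocilia tips. *Myo3a* was at 4.60 and 4.71 in mutants against 4.45 and 4.58 in wild type. *Myo3b* was at 6.27 and 6.37 in mutants against 6.08 and 6.15 in wild type. Both sat slightly higher on the mutant arrays without overlap, by gaps of 0.02 and 0.12, but neither passed the test (differences of 0.14 and 0.20, intervals -0.10 to 0.38 and -0.02 to 0.42, adjusted p = 0.287 and 0.12 from limma). *Myo3a* lay within the range of the 1210 probe sets for olfactory and vomeronasal receptors, genes of the nose whose signals serve as a rough guide to an unexpressed gene (5th to 95th percentile 4.05 to 5.72), and the other 8 members lay above it. These receptors also had a median difference of 0.17. Of them, 16.4% were called higher in mutants and 0 lower, beside 21.6% higher and 15.7% lower of all probe sets. Calls of higher were thus also made among probe sets used as a guide to background.

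*Espn*, which cross-links actin into the parallel bundles of stereocilia, had signals of 6.99 and 7.24 in mutants against 6.72 and 6.58 in wild type. All 4 values were separate, although the nearest mutant and wild-type arrays were 0.27 apart and the mutant arrays alone spanned nearly as much. *Espn* rose by 0.46 (standard error 0.12, interval 0.16 to 0.77, adjusted p = 0.0366 from limma), a fold of 1.38. Its call ended after median scaling (0.38, adjusted p = 0.0731), when the arrays were quantile normalized again (0.41, adjusted p = 0.0675) and when any 1 array was left out (differences of 0.34 to 0.59, adjusted p = 0.0561 to 0.156).

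Among the motors with wider use, *Myo1c*, a short-tailed myosin that links membranes to actin and was proposed as the motor of hair cell adaptation, had signals of 9.36 and 9.46 in mutants against 8.68 and 8.50 in wild type. The gap between genotypes was 0.68, far above the distance between arrays of either genotype. *Myo1c* rose by 0.82 (standard error 0.10, interval 0.56 to 1.08, adjusted p = 0.00613 from limma), a fold of 1.77, with 3.56% of probe sets showing a larger increase. Leaving out single arrays gave 0.73 to 0.91 and kept the call each time. Whether it rose less than *Myo7a* was not tested.
*Myo6*, the motor that moves toward the pointed end of actin and holds the membrane at the base of stereocilia, had signals of 8.88 and 9.11 in mutants against 9.59 and 9.70 in wild type. Both mutant arrays were lower, by at least 0.47. *Myo6* fell by 0.64 (standard error 0.11, interval -0.93 to -0.36, adjusted p = 0.0135 from limma), which makes wild type 1.56 times mutant. Without mutant replicate 1 the difference was -0.53 and passed no longer (adjusted p = 0.0628). The intervals of *Myo6* and *Myo7a*, both used to label hair cells, lay on opposite sides of 0.
*Myo5a*, which carries melanosomes in pigment cells and organelles in neurons, had signals of 8.47 and 8.32 in mutants against 8.76 and 8.83 in wild type. The mutant arrays were again both lower, with a gap of 0.29. *Myo5a* fell by 0.40 (standard error 0.09, interval -0.64 to -0.15, adjusted p = 0.0296 from limma), and leaving out any 1 array ended the call (differences of -0.47 to -0.32, adjusted p = 0.0588 to 0.151).
*Myo10*, which works at the tips of filopodia, was at 9.78 and 9.75 in mutants against 9.83 and 9.69 in wild type. The mutant values lay between the wild-type ones. Its difference of 0.01 (interval -0.23 to 0.24, adjusted p = 0.957 from limma) changed sign with scaling and with the arrays used.

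**Figure D2:**
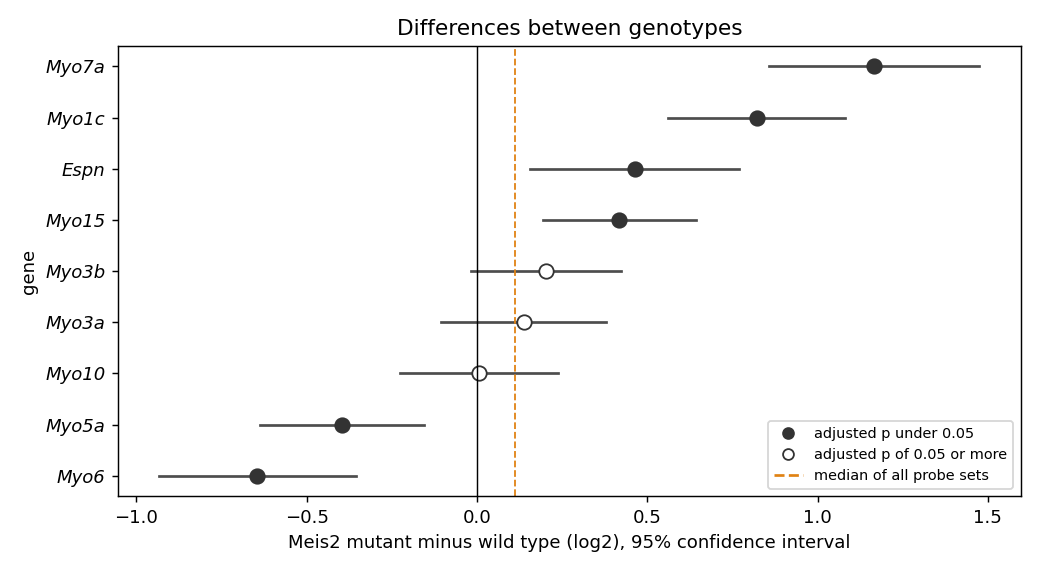
Log2 difference, mutant minus wild type, (x axis) with its 95% confidence interval for each member (y axis), filled where the adjusted p was under 0.05. *Myo7a* (1.17) and *Myo1c* (0.82) lie farthest to the right and *Myo6* (-0.64) farthest to the left, and the dashed line marks the median of all probe sets (0.11).

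The differences varied with the brightness of a probe set. Over 4 bins of mean signal with 8889 probe sets each, from dim to bright, the median difference of all probe sets was 0.11, 0.21, 0.07 and -0.01, the share higher in mutants was 7.89%, 25.5%, 26.2% and 27%, and the share lower was 3.04%, 7.17%, 22.4% and 30.1%. *Myo3a* lay in the dimmest bin, *Myo15* and *Myo3b* in the next, *Myo7a*, *Myo5a* and *Espn* in the third bin, and *Myo6*, *Myo1c* and *Myo10* in the brightest. The difference of *Myo3b* (0.20) was thus no larger than the median of its bin. The part of signal level in the members' differences was not tested.

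The rest of the myosin family and the proteins that work with these motors were read from gene lists, with the brightest probe set standing for a gene. Over all 19938 genes counted this way, 24.2% were higher and 16.2% lower in mutants. Counts with 1 array left out are given in the order without mutant replicate 1, mutant replicate 2, wild-type replicate 2 and wild-type replicate 3. Each of these fits also called fewer of all probe sets higher and fewer lower. Median scaling and repeated quantile normalization called fewer of all probe sets higher as well. A smaller count in any list given here or below therefore need not be particular to that list. Of 15 other unconventional myosins, 9 were higher, 1 was lower and 5 did not pass, with a median difference of 0.31. *Myo1d*, a relative of *Myo1c* whose fly counterpart sets left-right asymmetry, was at 9.89 and 9.71 in mutants against 8.57 and 8.64 in wild type and rose by 1.19 (adjusted p = 0.00327 from limma) at its brighter probe set, while a second probe set differed by -0.09 (adjusted p = 0.412). *Myo9b* rose by 0.59, and *Myo19*, the myosin of mitochondria, rose by 0.51. *Myo1e*, an endocytic myosin, was the 1 gene of this list called lower, by 0.51 (adjusted p = 0.0131 from limma). *Myo9a* did not pass at its brightest probe set (-0.20). Its 13 probe sets ranged from -1.28 (adjusted p = 0.00505 from limma) to 0.75 (adjusted p = 0.00619 from limma). The count of 9 higher was 5 after median scaling and 1, 1, 5 and 4 with 1 array left out, and the count of 1 lower was 0, 0, 1 and 1. By SAM, and with the probe sets of each gene averaged, 3 genes of this list were lower. *Myo1e* and *Myo9a* were named after their values were seen.
Conventional nonmuscle myosins, their light chains and kinases gave 3 higher, 5 lower and 5 that did not pass among 13 genes, with a median of -0.37. With 1 array left out, 2, 0, 1 and 2 were higher and 3, 3, 7 and 4 lower. *Calm2* and *Calm3*, which encode calmodulin, the light chain bound by the necks of most unconventional myosins, fell by 1.20 and 1.05 (adjusted p = 0.00682 and 0.0043 from limma). *Calm2* was at 10.26 and 10.45 in mutants against 11.36 and 11.74 in wild type, and both of its probe sets fell. *Calm3* was at 10.43 and 10.56 in mutants against 11.46 and 11.64 in wild type. *Rock1*, a kinase that activates nonmuscle myosin, fell by 1.53 (adjusted p = 0.00248 from limma).

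Among 30 genes of the stereocilia actin core and its bundlers, 5 were higher, 7 lower and 18 did not pass, with a median of 0.03 (-0.05 after median scaling). Left-out arrays, in the same order as for the myosins, gave 0, 0, 4 and 4 higher and 3, 2, 5 and 3 lower, median scaling gave 3 higher, and repeated quantile normalization 3 lower. The largest differences were decreases of *Dstn*, which severs actin filaments (1.15), *Capza2*, a subunit of the capping protein (0.73), and *Rdx*, radixin, which ties the stereocilium membrane to actin (0.61). *Espnl*, the relative of *Espn*, was at 7.48 and 7.52 in mutants against 6.87 and 7.02 in wild type and rose by 0.56 (adjusted p = 0.0117 from limma). The fimbrin *Pls1*, another bundler of the core, was at 8.69 and 8.90 in mutants against 9.23 and 9.14 in wild type and fell by 0.39 (adjusted p = 0.0432 from limma). Bundlers of the same core thus lay on both sides of 0. *Espnl* and *Pls1* were chosen after their values were seen.
Among 33 partners and cargo of the motors, 13 were higher, 6 lower and 14 did not pass, with a median of 0.20. The largest differences were those of *Dynll2*, a light chain of *Myo5a* and of dynein, which fell by 1.46, *Ralgds*, an activator of Ral GTPases, which rose by 0.95, and *Vasp*, an actin polymerase carried by *Myo10*, which rose by 0.80. The count of 13 higher was 4, 4, 11 and 10 with 1 array left out, and that of 6 lower was 2, 2, 6 and 3. Of the proteins that *Myo15* brings to the tips, *Gpsm2* and *Gnai3* fell by 0.40 and 0.48 (adjusted p = 0.0226 and 0.0308 from limma), whereas *Eps8* differed by 0.03 (adjusted p = 0.777 from limma). Of the genes that act with *Myo7a* at the links, *Cdh23* and *Ush1g* rose by 0.47 and 0.35 (adjusted p = 0.0308 and 0.0458 from limma). *Pcdh15* and *Ush1c* had differences of 0.38 and 0.17 (adjusted p = 0.054 and 0.203 from limma). A second probe set of *Pcdh15* differed by 0.01 (adjusted p = 0.945 from limma). These groupings by motor were chosen after the values were seen.

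Markers of the cells in which these genes are used moved in both directions. Of 27 hair cell markers other than the members, 8 were higher, 4 lower and 15 did not pass, with a median of 0.21 and a mean signal of 6.88 and 6.93 in mutants against 6.71 and 6.85 in wild type. The count of 8 higher was 4 after median scaling, 5 after repeated quantile normalization and 3, 1, 3 and 4 without mutant replicate 1, mutant replicate 2, wild-type replicate 2 and wild-type replicate 3, and the count of 4 lower was 1, 1, 5 and 3. The same order holds for the markers that follow. *Rbm24*, an RNA-binding protein of hair cells, rose by 0.81 (adjusted p = 0.0055 from limma), while the calcium buffer *Pvalb* fell by 0.98 and *Rprm* by 0.61, and *Pvalb* is also made by muscle and neurons. *Atoh1*, the factor that specifies hair cells, was at 8.08 and 8.08 in mutants against 7.68 and 7.96 in wild type. *Pou4f3*, a factor needed for their survival, was at 7.20 and 7.03 in mutants against 6.71 and 7.15 in wild type. Neither passed the test (differences of 0.27 and 0.19, adjusted p = 0.136 and 0.409 from limma), and both were chosen after their values were seen. Signals of *Tmc1*, *Tmc2* and *Chrna10* lay within the range of the nasal receptors, and those of the other 24 markers above it.
Prosensory and supporting cell markers gave 3 higher and 4 lower of 12, with *Sox2* falling by 1.94, *Cdkn1b* by 0.89 and *Hey1* rising by 0.83, and their mean signal was 9.24 to 9.38 in mutants against 9.42 to 9.48 in wild type. Here 1, 0, 3 and 2 were higher and 3, 2, 4 and 4 lower with 1 array left out. Of 15 ganglion neuron markers, cells that also use *Myo5a*, 7 were lower and 8 did not pass, with a median of -0.45 and a mean signal of 8.14 and 8.16 in mutants against 8.65 and 8.71 in wild type. *Nefl*, *Neurod1* and *Nefm* fell by 1.63, 1.36 and 1.34, and the count of 7 lower was 6, 3, 9 and 7 with 1 array left out. Glial markers gave 1 higher and 3 lower of 7 (*Fabp7*, *Cdh19* and *S100b* fell by 1.45, 0.94 and 0.47), and their mean signal was 8.66 to 8.73 in mutants against 8.96 to 9.03 in wild type. The 1 higher gene passed neither with median scaling nor with any array left out, and the 3 lower were 2, 2, 3 and 3. Melanocyte markers, the other cells known for *Myo5a*, gave 1 higher (*Mlana*, 0.27) and 7 that did not pass of 8, and their mean signal was 6.93 to 7.03 in mutants against 6.87 to 7.17 in wild type. *Mlana* was close to the threshold (adjusted p = 0.0496 from limma), and 0 melanocyte markers were higher with a trended or robust prior, with array weights, with median scaling, with quantile normalization repeated or with any array left out, while 1 was lower without wild-type replicate 2. Of 5 otolith genes of the vestibule, 3 were higher (*Otogl*, *Otop1* and *Otog*, by 0.80, 0.68 and 0.58), with a mean signal of 9.67 and 9.78 in mutants against 9.36 and 9.41 in wild type, and 1, 0, 3 and 2 were higher with 1 array left out. The name of the otolith list does not mean that its genes are used only in the vestibule. Another probe set of *Otogl* differed by 0.25 (adjusted p = 0.108 from limma). Skeletal muscle markers gave 9 higher of 12 (*Myh3*, *Acta1* and *Myod1*, by 1.55, 0.93 and 0.69), with mean signals of 6.61 and 6.91 in mutants against 6.08 and 6.30 in wild type. The 9 became 4 after median scaling and 4, 1, 1 and 6 with 1 array left out. Macrophage markers gave 1 higher of 8 (*Cd68*, 0.62), and their mean signal was 7.23 to 7.29 in mutants against 7.18 to 7.62 in wild type. Of these 8, 4 were lower without wild-type replicate 2, and 4 by SAM. There were 3 higher of 4 erythroid markers (*Hbb-y* and *Slc4a1* by 1.10 and 0.50) and 1 lower (*Alas2*, by 0.88), and their mean signal was 8.08 to 8.18 in mutants against 7.83 to 7.89 in wild type. The 3 became 1 after median scaling and 0, 1, 1 and 1 with 1 array left out. The part of these cells in the members' differences was not tested.

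**Figure D3:**
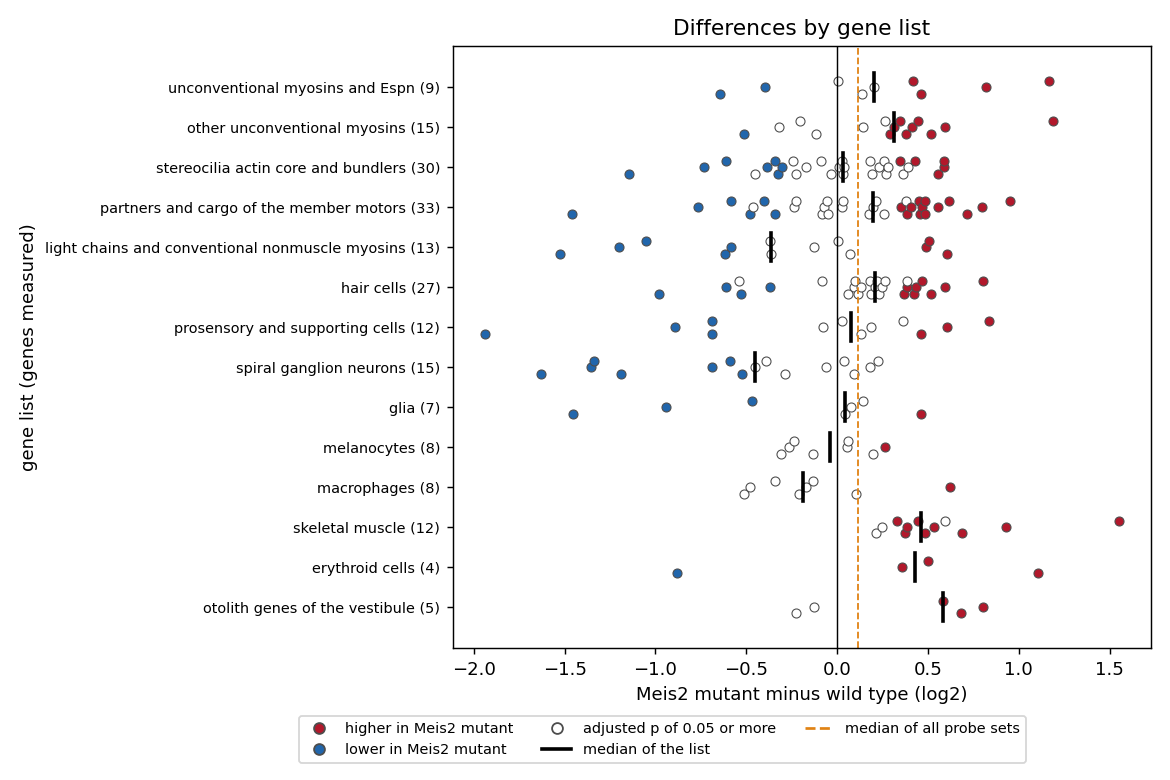
Log2 difference, mutant minus wild type, (x axis) of every gene measured in each list (y axis), with filled points past the adjusted threshold and a bar at the median of the list. The 9 members spread to both sides (-0.64 to 1.17), other unconventional myosins lie mostly to the right (median 0.31), and ganglion neuron markers (-0.45) and light chains with conventional myosins (-0.37) have their medians to the left.

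*Myo7a* and *Myo1c* kept their calls in all 15 alternatives tried, *Myo6* in 14, *Myo15* and *Myo5a* in 11 and *Espn* in 9. These counts do not measure robustness, since a threshold of 0.1 can only keep a call and SAM called 75.8% of all probe sets. Several settings also left each difference as it was, and *Espn* kept its call only in settings that left its difference at 0.46. Without wild-type replicate 2, which leaves arrays with *Xist* signals of 11.51 to 11.84, *Myo7a* (1.09), *Myo1c* (0.91), *Myo15* (0.48) and *Myo6* (-0.70) were past the threshold.

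**Figure D4:**
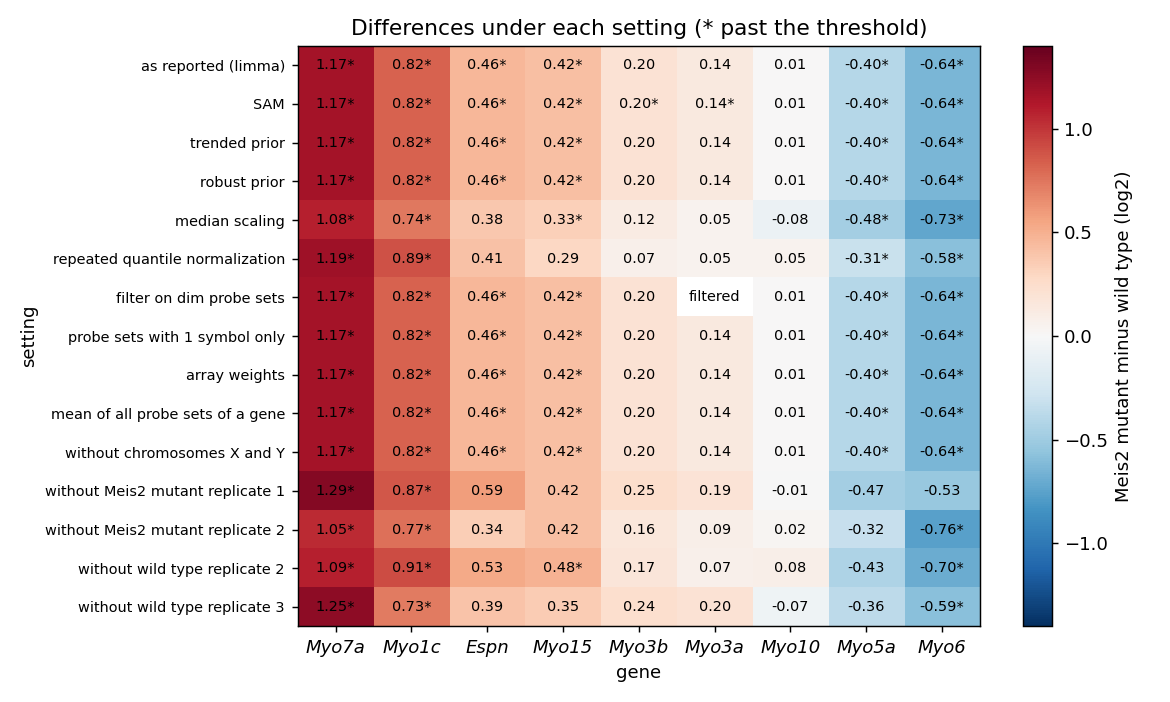
Log2 difference, mutant minus wild type, (color and printed value) for each member (x axis) under each setting (y axis), with an asterisk where the threshold of 0.05 was passed. *Myo7a* stays between 1.05 and 1.29 and *Myo1c* between 0.73 and 0.91, while the asterisks of *Espn* and *Myo5a* vanish when any array is left out.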

How the data were processed

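RNA of E15 cochleas was measured on Affymetrix Mouse Gene ST arrays. The authors deposited log2 signals made with RMA, which subtracts background, normalizes between arrays and summarizes the probes of a set, and the submitters' processing notes name the build mm8. Scanner files were not used here. Differences (mutant minus wild type) were fitted with limma 3.58.1 in R 4.3.3 (lmFit and eBayes, no covariate) on all 35556 probe sets, with Benjamini-Hochberg adjustment and a threshold of 0.05. The prior added 2.91 degrees of freedom to 2 residual ones, so the number of arrays limits the precision, and p-values measure only the spread between these arrays, which may be technical. The methods of the study name significance analysis of microarrays (SAM), which has 6 relabelings here and was kept as an alternative.
Probe sets were named from the platform annotation (21789 with 1 symbol, 1621 with several and 12146 not named), with symbols updated for 21698 through RefSeq genes of GRCm38.p6. All members were named, as were the 3 genes of each list with the largest difference among those past the threshold, apart from genes said to be chosen later. The lists were unconventional myosins, light chains and conventional myosins, actin core genes and motor partners. Further lists held markers of hair, prosensory, neuronal, glial, pigment, macrophage, muscle and erythroid cells, and otolith genes. Some genes stand in several lists. Members and lists were chosen with earlier results of these data known. A test used simulated data with the same layout of arrays and 35556 probe sets. There limma recovered 44 percent of 100 differences of 1 and 73 percent of 100 differences of 2 on the log2 scale. SAM recovered 44 and 74 percent. Only these differences were added, whereas 37.3% of all probe sets passed with limma in the deposited data. The shares recovered therefore need not hold for the deposited data.
The alternatives were SAM, other priors, median scaling, repeated quantile normalization, a filter at the 40th percentile of mean signal, array weights, only probe sets with 1 symbol, averaging the probe sets of each gene, a threshold of 0.1, leaving out chromosomes X and Y and leaving out each array in turn. A genotype left with 1 array was assumed to vary like the other. Their use for the lists, and the bins of signal, were added after the data were seen.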

Additional observations from a re-analysis of the deposited data

How the results depend on the processing

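Of the 4 members higher in mutants, 2 stayed past the threshold after repeated quantile normalization and 2 to 3 when an array was left out. Of the 2 lower, 0 to 1 stayed when an array was left out, the 0 being limma without mutant replicate 1, where both had an unadjusted p under 0.05. *Myo10*, which passed the test in no setting, changed sign to -0.077 after median scaling, and its differences without an array ranged between -0.065 and 0.079. SAM called 75.8% of all probe sets (26962, against 13268 with limma) and 8 of the 9 members, *Myo3a* and *Myo3b* included, which is a share of members close to that of all probe sets. The count of 13268 was 5811 and 4611 without mutant replicates 1 and 2. Each fit without an array has fewer residual degrees of freedom, and each called fewer of all probe sets higher and fewer lower. After repeated quantile normalization 17.1% of all probe sets were higher and 15.5% lower, beside 21.6% and 15.7% as deposited. Fewer calls among the members thus went with fewer calls over all probe sets, and the cause of these changes was not tested. The filter on dim probe sets removed *Myo3a*. Across the lists, other unconventional myosins had a positive median in every setting (0.23 with median scaling, 0.25 with quantile normalization repeated). The median of all probe sets was positive in every setting as well (0.03 and 0.05 in the same order). Several settings change only the test and leave each difference as it was. No paired analysis was made. The genotypes share only the replicate number 2, and the labels do not say that equal numbers mark pairs. The deposited values carry no detection call, so the signal of dim members such as *Myo3a* cannot be told from background.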
